A study of Mus musculus with 12 samples.

Results

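The cytosolic ribosomal protein genes are the genes that encode the proteins of the cytoplasmic ribosome, the Rpl genes for the large (60S) subunit and the Rps genes for the small (40S) subunit. They were taken by name: symbols made of Rpl or Rps, a number and an optional ending such as a, x, y or l, together with Rplp0, Rplp1, Rplp2 and Rpsa, without pseudogene names and without the Rps6k kinases, and with a mean of at least 1 CPM (counts scaled to library size) over the libraries. Of 56980 genes in the table, 89 had such a name and 82 reached 1 CPM, 48 for the large subunit and 34 for the small one. All 82 also passed the filter on low counts that left 17827 genes for testing. The genes nearest the threshold were Rpl3l, left out at 0.881 CPM, and Rpl12 and Rps12l1, kept at 12.1 and 17.3 CPM.

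The lungs of male C57BL/6 mice aged 6 to 8 weeks gave 12 libraries of polyadenylated RNA. The 4 HBG libraries came from mice given bleomycin and Huashibaidu granules, a herbal preparation, by mouth at 7 g/kg. The 4 Model libraries came from mice given a single dose of bleomycin, 5 mg/kg into the trachea, which induces lung fibrosis, and distilled water in place of the granules. The 4 Control libraries came from mice that also received distilled water, and the labels do not say what they received in the trachea. The labels name no genetic change in any group and place the killing of all mice on day 28. They give 2 schedules for the granules, from 1 week before bleomycin until day 28 or from day 7 for 14 days, so the timing stays uncertain. Whether each library stands for its own mouse is not in the labels, so the p-values measure the spread between libraries, which may be technical.

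Each ribosome holds a single copy of almost every ribosomal protein, with the stalk proteins Rplp1 and Rplp2 as an exception, so cells make these proteins in near equal amounts. Their messages begin with a short run of pyrimidines, the 5′ terminal oligopyrimidine (TOP) motif, through which the growth-controlling mTOR pathway adjusts the translation of the whole family. Mammalian genomes also hold many processed pseudogenes of these genes, copied from the spliced message, and the reads of such copies are hard to assign.

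That last feature touched the gene that stood out most. Rpl13, whose protein belongs to the large subunit, lies on chr8:123102350-123105244 (+) in GRCm38, per GENCODE M21. Gm12918, annotated as a processed pseudogene, lies on chr4:10848420-10849055 (+) in the same build. The whole Gm12918 gene is 636 bases long, and all 636 match the open reading frame of Rpl13 with 0 differences. The first 90 bases of both are shown because a read from either would look the same, with the start codon in capitals.
Rpl13: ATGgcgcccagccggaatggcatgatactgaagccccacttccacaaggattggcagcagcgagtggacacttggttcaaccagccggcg
Gm12918: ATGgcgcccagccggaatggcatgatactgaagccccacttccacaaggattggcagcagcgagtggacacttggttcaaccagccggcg

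Promoter sequences were listed by RefSeq (GRCm38.p6) for 60 of the 82 genes, each running from 250 bases before the annotated start to 50 bases from it. The 75 bases around the start are shown for Rpl13, the gene that differed most, for Rps6, the target of the S6 kinases downstream of mTOR, and for Rpl13a, a large subunit gene close to Rpl13 in name only. Capitals mark ACTTCC or its reverse complement GGAAGT, the core bound by ETS-family factors.
Rpl13: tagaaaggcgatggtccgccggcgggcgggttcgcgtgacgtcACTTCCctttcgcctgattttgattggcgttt
Rps6: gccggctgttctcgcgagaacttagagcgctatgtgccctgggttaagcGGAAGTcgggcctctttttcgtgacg
Rpl13a: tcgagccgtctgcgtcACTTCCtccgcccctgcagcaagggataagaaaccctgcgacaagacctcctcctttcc

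These stretches are chr8:123102290-123102364 (+), chr4:86857353-86857427 (-) and chr7:45128731-45128805 (-). On either strand, ACTTCC was found in 29 of the 60 promoters (48.3%), against 24% of the 27025 promoters listed. CTCTTTC, a run of pyrimidines, was found on either strand in 17 of 60 (28.3%), against 8.1% of all. It was counted anywhere in the 300 bases, so this is not a count of TOP motifs, which begin the message. TATAAA was found in 7 of 60 (11.7%), against 14.1% of all. The Rpl13 promoter holds ACTTCC and CTCTTTC once each in its 300 bases, and TATAAA 0 times. None of the 3 motifs contains another. A match is a description of the letters and not a binding site.

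The libraries held 17979863 to 27150787 estimated counts each. The 82 genes took 2.45%, 2.66%, 2.64% and 2.67% of the counts in the HBG libraries, 2.75%, 2.37%, 2.55% and 2.06% in the Model libraries and 2.76%, 2.44%, 2.80% and 2.68% in the Control libraries. The 3 groups overlapped, and the lowest library of all was Model 4. In bulk tissue, fewer cells of a type and less RNA per cell cannot be told apart, and this holds for every difference below. The marker lists, chosen like all lists with earlier results known, moved between libraries as well: the summed macrophage markers spanned 6424 to 7701 CPM in HBG, 4385 to 12250 CPM in the Model libraries and 4625 to 6899 CPM in Control, and all 10 of them had a higher mean in Model than in Control. Summed lymphocyte markers spanned 84.7 to 799.6 CPM in HBG, 104.6 to 684.7 CPM in the Model libraries and 71.6 to 323.5 CPM in Control. All 9 cardiac muscle markers had a lower mean in Model than in Control (333 to 3330 CPM summed in HBG, 345.4 to 3173 CPM in Model, 830.2 to 5499 CPM in Control). The part of these cell types in the results below was not tested.

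The levels of the 82 genes were set per kilobase of the gene length given in the table. Most lay near their median, but the range was wide. The median was 373 CPM per kilobase and 61 of the 82 lay within 2-fold of it. The highest was Rpl41, which encodes the smallest ribosomal protein, at 1001 CPM per kilobase. The lowest was Rpl12, a large subunit gene, at 9.78 CPM per kilobase. Per library and not per length, the most abundant members were Rpl4, Rps3a1 and Rplp0, with means of 810.8, 778.9 and 748.4 CPM. Rpl4 averaged 800.6 ± 84.8 CPM in HBG, 829.4 ± 62.2 CPM in the Model libraries and 805.4 ± 49.3 CPM in Control (SD, n = 4 each). The spread of single genes within a group was widest in Model, with a median coefficient of variation of 8.88% in HBG, 16.5% in Model and 9.86% in Control.

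Rpl13 was lower in both groups given bleomycin and was the only one of the 82 genes to pass the test. Its level was 139, 135.7, 167.1 and 186.3 CPM in the HBG libraries. It was 102.4, 94.1, 121.1 and 69.8 CPM in the Model libraries and 421.8, 360.7, 379.3 and 402.8 CPM in the Control libraries. The 3 groups did not overlap: every Control library was above every HBG library, and every HBG library above every Model library. The means were 157 ± 24.1 CPM in HBG, 96.9 ± 21.3 CPM in the Model libraries and 391.1 ± 26.7 CPM in Control (SD, n = 4 each).

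In Model against Control the log2 fold change of Rpl13 was -2.01 ± 0.16 (SE), or 0.248-fold, with an adjusted p of 1.33e-04 in edgeR's quasi-likelihood test. For HBG over Control it was -1.32 ± 0.16, with an adjusted p of 0.00409 in edgeR's test. Between HBG and Model it was 0.70 ± 0.16, with an unadjusted p of 9.24e-04 and an adjusted p of 0.9999 in edgeR's test, so this difference did not pass. Among all genes tested, 0.348% passed in Model against Control (0.297% lower), 0% in HBG against Model and 0.151% in HBG against Control (0.129% lower). The members' count was 1 of 82, lower, in Model against Control and in HBG against Control, and 0 of 82 in HBG against Model. The comparisons share libraries, Control in a pair of them and Model in another.

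Scales that do not use the whole library gave the same order of groups. As a share of the counts of the 82 genes, Rpl13 took 0.597%, 0.526%, 0.646% and 0.692% in the HBG libraries, 0.363%, 0.401%, 0.465% and 0.338% in the Model libraries and 1.51%, 1.45%, 1.29% and 1.55% in the Control libraries. Control was again highest and Model lowest, without overlap. With libraries scaled on the 82 genes only, the log2 fold change of Rpl13 was -1.88 in Model against Control (adjusted p = 2.598e-05, edgeR) and -1.22 in HBG against Control (adjusted p = 0.00135, edgeR), and Rpl13 was still the only one of the 82 called in each, where 0.191% and 0.0954% of all genes were called.

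The row of its identical copy did not follow it. Gm12918 had 104.7, 140.1, 69.7 and 130.2 CPM in the HBG libraries, 136.6, 71.3, 126.8 and 97.3 CPM in the Model libraries and 79.2, 54.9, 102 and 65.6 CPM in the Control libraries. The groups overlapped. Its log2 fold change in Model against Control was 0.52 ± 0.26, with an adjusted p of 0.478 in edgeR's test, so it did not pass.

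Added together with its 12 copies, of which Gm12918 held nearly all the reads, Rpl13 differed less between the groups. The sum was 243.7, 275.7, 236.7 and 316.7 CPM in the HBG libraries, 239.2, 165.3, 248.1 and 167.1 CPM in the Model libraries and 501, 415.7, 481.7 and 468.5 CPM in the Control libraries. Control stayed above both other groups without overlap, while HBG and Model now overlapped. The sum was 0.439-fold in Model against Control, a log2 fold change of -1.19 ± 0.16 with an adjusted p of 0.00618 in edgeR's test. The log2 fold change of the sum in HBG against Control was -0.80 ± 0.16 and the adjusted p of 0.0927 in edgeR's test no longer passed. For HBG over Model it was 0.39 ± 0.15, with an adjusted p of 0.9999 in edgeR's test. With all members summed with their copies, 1 of 82 was called in Model against Control and 0 in the other comparisons, against 0.349% of all rows in Model against Control, 0.124% in HBG against Control and 0% between HBG and Model. The named pseudogenes Rpl13-ps1 to Rpl13-ps6 did not matter to this, since their rows summed to 13 counts over the 4 HBG libraries, 9 over the 4 Model libraries and 17 over the 4 Control libraries.

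**Figure D1:**
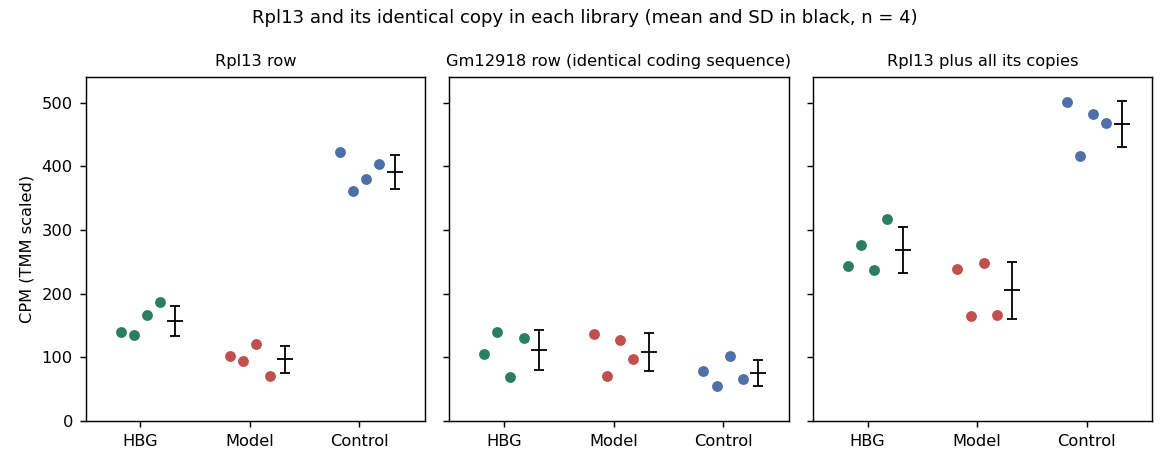
Level in each library (CPM, linear axis) of the Rpl13 row, of the Gm12918 row and of Rpl13 added to all its copies, in HBG, Model and Control, with the mean and SD of 4 libraries in black. The Rpl13 row averaged 157 CPM in HBG, 96.9 CPM in the Model libraries and 391.1 CPM in Control, and the sum averaged 268.2, 204.9 and 466.7 CPM in the same order.

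The genes outside the family whose levels followed the Rpl13 row most closely were Rnaseh2c, Hnrnpa0, Sap30l, H2ax and Zfp771. They were chosen for that, by Pearson's r of log2 CPM over the 12 libraries, which was 0.969, 0.964, 0.952, 0.949 and 0.948 among 15838 genes searched. These 12 points share the group differences. Hnrnpa0, an RNA-binding protein, averaged 71.8 ± 3.56 CPM in HBG, 65.1 ± 8.57 CPM in the Model libraries and 136.4 ± 7.56 CPM in Control (SD, n = 4 each). Within the family, the member closest to Rpl13 was Rps2, at r = 0.853. The median r of Rpl13 with the other members was 0.507, and that between pairs of other members was 0.584.

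Copies held a large part of the reads of several other members. Rows of 987 other genes matched the open reading frame of a member at 90% identity or more over at least 70% of its length, and 74 of the 82 members had at least 1 such copy. For 20 members the copies held 10% or more of the summed reads, and for 4 they held 50% or more. The rows of Rpl12 and Rpl5, a large subunit protein that binds 5S rRNA, were low. Copies held 96.2% of the summed reads of Rpl12 and 95.8% of those of Rpl5, and their part in the low levels was not tested. The Rpl12 row averaged 10.6 ± 1.46 CPM in HBG, 12.0 ± 2.52 CPM in the Model libraries and 13.8 ± 0.73 CPM in Control. Its identical copy Gm10275 averaged 308.1 ± 10.4 CPM in HBG, 297.4 ± 35.9 CPM in the Model libraries and 315.7 ± 29.4 CPM in Control (SD, n = 4 each). Gm15500, identical to the open reading frame of Rpl5, averaged 542.6 ± 76.4 CPM in HBG, 531.5 ± 45.6 CPM in the Model libraries and 564.2 ± 36.0 CPM in Control.

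Where a gene and its copy both held many reads, their rows could move apart. Rpl10a, a large subunit gene, had 226.7, 180.0, 175.9 and 187.5 CPM in HBG, 264.1, 244.2, 241.4 and 206.8 CPM in the Model libraries and 216.5, 179.8, 194.6 and 168.2 CPM in Control, the largest log2 fold change of the 82 in Model against Control at 0.33 ± 0.12 (adjusted p = 0.302, edgeR). Its copy Rpl10a-ps1 had 86.2, 137.9, 105.4 and 150.8 CPM in HBG, 114.4, 48.4, 111.7 and 77.6 CPM in the Model libraries and 140.1, 139, 179.6 and 134.7 CPM in Control. The row of the gene was mostly higher in Model than in Control, and that of the copy was lower. Summed with its copies, Rpl10a averaged 312.6 CPM in HBG, 327.1 CPM in the Model libraries and 338.2 CPM in Control, and the log2 fold change in Model against Control was -0.05.

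Rps13, a small subunit gene, showed the same in HBG against Control. Its row had 99.0, 83.4, 98.3 and 83.0 CPM in HBG, 73.5, 72.2, 99.6 and 50.9 CPM in the Model libraries and 73.4, 61.3, 82.5 and 62.6 CPM in Control. Every HBG library lay above every Control library, by a narrow margin, with a log2 fold change of 0.38 ± 0.17 (adjusted p = 0.602, edgeR). Rps13-ps1 had 29.0, 42.1, 49.6 and 59.4 CPM in HBG against 59.5, 59.7, 85.5 and 76.3 CPM in Control, so its HBG libraries all lay below. With copies added, Rps13 averaged 148.6 CPM in HBG and 156.7 CPM in Control, a log2 fold change of -0.08. The 24 tested rows of named pseudogenes were mostly lower in Model than in Control, 23 of 24 against 48.5% of all genes tested. Their median log2 fold change was -0.39 and 0 passed the test. Copies under other names, such as Gm12918, are not among these 24 rows. For Rps6, the row gave a log2 fold change of 0.36 ± 0.12 in HBG against Control (adjusted p = 0.479, edgeR) and the sum with copies gave 0.02.

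The spread of the family was smaller over sums. Leaving Rpl13 aside, the SD of the log2 fold changes in Model against Control was 0.192 over the 81 sums, against 0.212 over the 81 single rows. For HBG over Model it was 0.116 over the sums and 0.142 over the rows. In Model against Control the highest sum was that of Rpl29, at 0.20, and the lowest after Rpl13 was that of Rps12l1, at -1.04. For Rps12l1, 0 copies were found, so its sum is its own row.

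**Figure D2:**
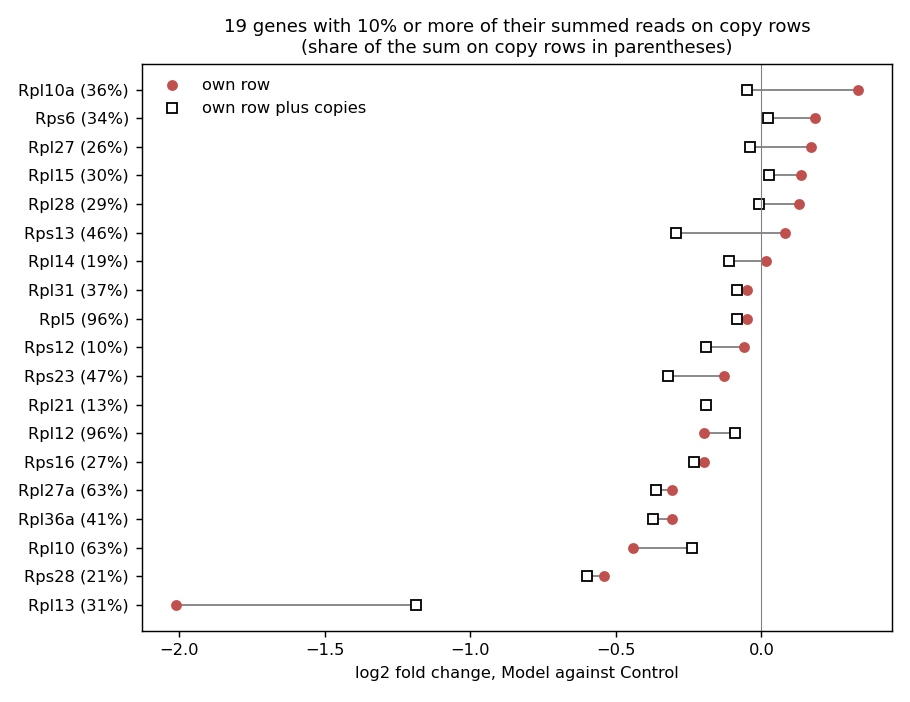
Log2 fold change in Model against Control of 19 of the 20 members whose copies held 10% or more of the summed reads, from the member's own row (filled circles) and from the row plus its copies (open squares), with the share on copies in parentheses. Rpl13 lies at -2.01 on its own row and at -1.19 as a sum, and Rpl10a lies at 0.33 and -0.05.

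The family as a whole had a slightly lower median in Model, with or without Rpl13. Without it, 64 of 81 genes had a lower mean in Model than in Control and the median log2 fold change was -0.15. Of all 82 genes, 65 had a lower and 17 a higher mean in Model than in Control, with a median log2 fold change of -0.15 (0.899-fold). Among all genes tested the median was 0.01, and 48.5% had a lower and 51.5% a higher mean. Between HBG and Control, 59 of 82 had a lower and 23 a higher mean with a median of -0.10, against 49% lower, 51% higher and a median of 0.01 for all genes. Between HBG and Model, 54 of 82 had a higher and 28 a lower mean with a median of 0.05, against 50.1% higher, 49.9% lower and a median of 0.00 for all genes. Summed with their copies, 70 of 82 were lower in Model than in Control, with a median of -0.16. The sums gave 64 of 82 lower in HBG than in Control, with a median of -0.10. In HBG against Model 56 of 82 sums were higher, with a median of 0.06. On single rows, the large and small subunits gave like medians in Model against Control, -0.14 over 48 genes and -0.16 over 34 genes.

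The groups overlapped in this shift. The median log2 deviation of the 82 genes from their mean over the libraries was -0.11, 0.01, -0.03 and 0.06 in HBG, 0.15, -0.13, 0.04 and -0.34 in Model and 0.13, -0.02, 0.21 and 0.03 in Control. Among the 12 libraries, Control 3 was highest, Model 1 came next and Model 4 was lowest. The pooled SD of these values within a group was 0.143, about as large as the median difference. In Model 4, 77 of the 82 genes lay below their mean, in HBG 1 70, in Model 2 63, and in Model 1 only 6. Without Model 4, 53 of 82 genes had a lower mean in Model than in Control and the median log2 fold change was -0.08, and in HBG against Model the median was -0.04 in place of 0.05. With a correction for GC content and gene length the median was -0.04 in Model against Control and 0.00 in HBG against Control.

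Gene length and expression level both went with the shift in the comparisons with Control. Over the 81 members other than Rpl13, the Spearman correlation of the log2 fold change with gene length was 0.332 in Model against Control. In HBG against Control it was 0.299. With mean log2 CPM the correlation was 0.286 and 0.302 in the same order. In HBG against Model it was -0.1175 with length and 0.028 with level. These values are a description across genes of the same libraries. The shorter 41 members had a median of -0.17 and the longer 41 a median of -0.13 in Model against Control. Mitochondrially encoded RNA took 2.603% to 5.32% of the counts in HBG, 3.15% to 6.53% in Model and 4.58% to 5.99% in Control. Model 4, the library with the lowest ribosomal protein share, was at 6.53%. Model 2, with the next lowest share, was at 3.15%, and Control 3, with the highest share, was at 5.755%. The part of length, level and RNA quality in the shift was not tested.

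**Figure D3:**
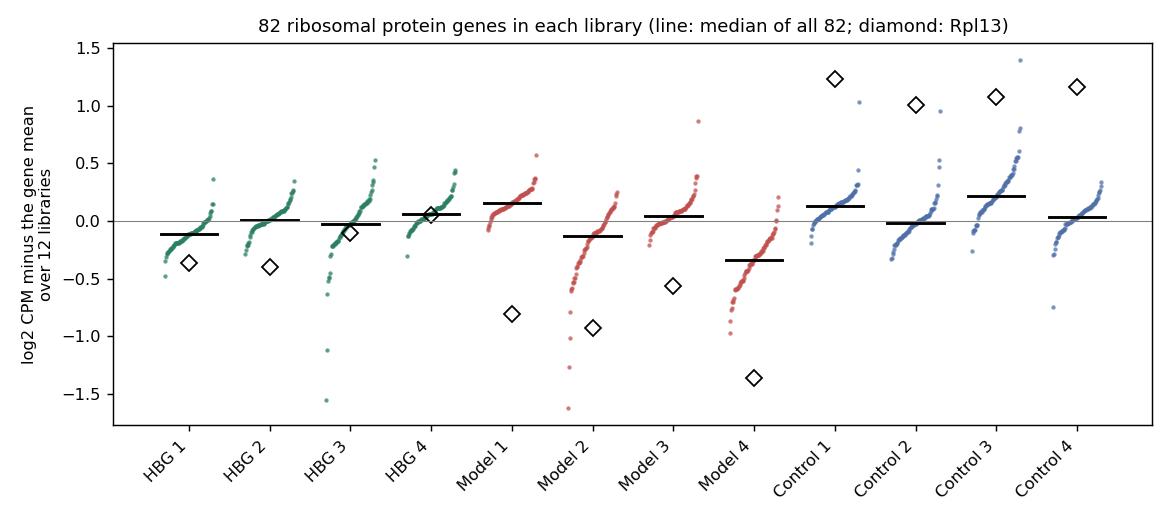
Log2 CPM of each of the 82 genes minus its mean over the 12 libraries, one column of points per library in HBG, Model and Control, sorted within the column, with the median as a line and Rpl13 as a diamond. Model 4 has the lowest median at -0.34, and the diamonds lie above 1 in all 4 Control libraries.

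Among large subunit genes other than Rpl13, none passed the test in any comparison. Those with unadjusted p under 0.05 in Model against Control were 2 higher, Rpl10a and Rpl29, and 7 lower, among them Rplp2, Rpl10, Rpl38 and Rplp1. Over all 82 genes it was 2 higher and 13 lower, where 11.7% of all genes tested had such a p, 6.36% higher and 5.33% lower. HBG against Model had 2 higher (Rpl13 and Rpl10) and 2 lower (Rpl10a and Rps26) among the 82, where 2.43% of all genes had such a p, 0.735% higher and 1.69% lower. HBG against Control had 1 higher, Rps6, and 10 lower, where 8.25% of all genes had such a p, 3.59% higher and 4.66% lower. Rpl29 averaged 241.9 ± 19.0 CPM in HBG, 261.9 ± 25.2 CPM in the Model libraries and 225.7 ± 14.1 CPM in Control, a log2 fold change of 0.21 ± 0.10 in Model against Control (adjusted p = 0.419, edgeR). Rpl27, another gene among the 4 highest there, was at 0.17 ± 0.11 on its own row and at -0.04 with its copies. Rpl13a averaged 587.3 ± 48.9 CPM in HBG, 559.7 ± 128.4 CPM in the Model libraries and 606.3 ± 60.6 CPM in Control, with a log2 fold change of -0.12 ± 0.16 in Model against Control (adjusted p = 0.820, edgeR). It did not go with Rpl13.

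No large subunit gene passed in HBG against Model, where those with the highest and lowest log2 fold changes besides Rpl13 were Rpl10, Rpl34, Rpl41 and Rpl10a. Rpl10, an X-linked gene, had 164.3, 259.8, 257.9 and 274.3 CPM in HBG, 194.2, 145.6, 205.2 and 120 CPM in the Model libraries and 227.1, 214.1, 259.1 and 203 CPM in Control. In 3 of 4 HBG libraries it was above all Model libraries, and HBG 1 lay among them. The log2 fold change in HBG against Model was 0.52 ± 0.19 (adjusted p = 0.9999, edgeR), on a gene whose copies held 63.1% of the summed reads, and that of the sum with copies was 0.20 ± 0.14. Rpl34 was at 0.31 ± 0.17 in the same comparison. Rpl41 was at -0.27 ± 0.15 and Rpl10a at -0.31 ± 0.12 (adjusted p = 0.9999 each, edgeR). Summed with its copies, Rpl10a was at -0.07 ± 0.12 there. Rpl14 was among the 4 highest in HBG against Control, at 0.25 ± 0.15 on its own row (adjusted p = 0.695, edgeR) and 0.09 with its copies.

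The stalk recruits and activates the elongation factors of translation and consists of Rplp0, which anchors it, and of pairs of Rplp1 and Rplp2. Rplp0 averaged 769.5 ± 39.3 CPM in HBG, 753.9 ± 105.2 CPM in the Model libraries and 723.6 ± 49.2 CPM in Control (SD, n = 4 each). Rplp1 averaged 395.0 ± 33.6 CPM in HBG, 364.4 ± 69.0 CPM in the Model libraries and 470.5 ± 63.7 CPM in Control. Rplp2 had 233.9, 244.5, 203 and 279.4 CPM in HBG, 230.3, 160.6, 242.3 and 142.3 CPM in the Model libraries and 275.2, 239, 316.1 and 275.8 CPM in Control. For Rplp2, Model 2 and Model 4 lay below all the other libraries, while Model 1 and Model 3 overlapped the other groups. The log2 fold changes in Model against Control were 0.06 ± 0.12 for Rplp0, -0.37 ± 0.14 for Rplp1 and -0.51 ± 0.17 for Rplp2 (adjusted p = 0.885, 0.361 and 0.287, edgeR), so none passed.

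In the small subunit no gene passed edgeR's test, but Rps2 came nearest. Rps2, which sits near the entry channel of the messenger RNA, had 373.9, 325.4, 344.2 and 365.4 CPM in HBG, 396.9, 327.4, 371.2 and 334.7 CPM in the Model libraries and 485.6, 451.6, 492 and 431.8 CPM in Control. Every Control library lay above all 8 others, while HBG and Model overlapped. Its log2 fold change was -0.38 ± 0.10 in Model against Control (adjusted p = 0.158, edgeR) and -0.40 ± 0.10 in HBG against Control (adjusted p = 0.200, edgeR), and copies held 0.966% of its summed reads. DESeq2 and limma-voom called Rps2 beside Rpl13 in both comparisons. Those tools called more of all genes, 2.12% and 6.05% in Model against Control and 0.976% and 0.567% in HBG against Control. They called 0 of the 82 genes in HBG against Model, where they called 0.00876% and 0% of all genes.

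Of the 82 genes, 3 did not overlap between Model and Control, all lower in Model (Rpl13, Rps2 and Rps21), where 8.71% of all genes tested did not overlap, 4.51% lower and 4.2% higher. Rps21 had 152.0, 165.2, 142.9 and 171.1 CPM in HBG, 172.7, 112.5, 172.6 and 108.8 CPM in the Model libraries and 193.8, 184.0, 239.7 and 195.4 CPM in Control. Its log2 fold change in Model against Control was -0.52 ± 0.16 (adjusted p = 0.255, edgeR). Between HBG and Control, 12 of 82 were lower without overlap and 1, Rps13, was higher, against 3.92% and 2.41% of all genes tested, 6.33% in all. Among these 12 were Rpl12, Rpl13, Rpl23, Rpl37, Rpl38, Rpl39, Rps2, Rps20, Rps21, Rps24 and Rps28, and only Rpl13 passed the test. Between HBG and Model, Rpl13 was higher and Rps26 lower without overlap, against 0.454% and 0.673% of all genes, 1.13% in all. Rps26 averaged 203.6 ± 8.53 CPM in HBG and 234.5 ± 17.96 CPM in Model, a log2 fold change of -0.20 ± 0.09 (adjusted p = 0.9999, edgeR).

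Rps28 and Rps29 encode very small proteins of the small subunit. Rps28 had 77.8, 89.3, 75.8 and 89.6 CPM in HBG, 105.3, 61.5, 102.8 and 62.1 CPM in the Model libraries and 101.7, 107.7, 161.9 and 111.3 CPM in Control. Rps29 had 105.9, 126.1, 132.7 and 125.3 CPM in HBG, 137.4, 89.3, 135.8 and 76.5 CPM in the Model libraries and 130.7, 160.0, 221.4 and 159.4 CPM in Control. In both, Model 2 and Model 4 were low, Control 3 was high and Model overlapped Control. The log2 fold changes in Model against Control were -0.54 ± 0.20 for Rps28 and -0.61 ± 0.20 for Rps29 (adjusted p = 0.335 and 0.283, edgeR). For HBG over Control they were -0.54 ± 0.20 and -0.45 ± 0.20 (adjusted p = 0.530 and 0.599, edgeR). Rps27 was at 0.32 ± 0.18 in HBG against Model (adjusted p = 0.9999, edgeR) and at -0.42 ± 0.18 in Model against Control (adjusted p = 0.404, edgeR).

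No difference in the other small subunit genes named here passed the test. Rps6 averaged 508.5 ± 44.1 CPM in HBG, 451.7 ± 61.3 CPM in the Model libraries and 397.3 ± 43.1 CPM in Control. Rps4x, X-linked in the mouse, averaged 646.9 ± 80.5 CPM in HBG, 586.4 ± 57.1 CPM in the Model libraries and 612.5 ± 38.0 CPM in Control. Rpsa, also known as a precursor of a laminin receptor, averaged 659.2 ± 80.7 CPM in HBG, 612.1 ± 77.3 CPM in the Model libraries and 607.8 ± 43.4 CPM in Control (SD, n = 4 each). The log2 fold changes of Rps6, Rps4x and Rpsa in Model against Control were 0.19, -0.06 and 0.01.

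Rps12l1, Rps27l and Rpl22l1 varied widely between libraries of a group. Rps12l1 had 13.1, 15.4, 4.82 and 11.6 CPM in HBG, 15.8, 4.59, 26.2 and 7.26 CPM in the Model libraries and 29.5, 27.9, 37.9 and 15.3 CPM in Control. HBG 3 and Model 2 were lowest, and all groups overlapped, by a narrow margin between HBG and Control. Its log2 fold changes were -1.04 ± 0.50 in Model against Control and -1.30 ± 0.51 in HBG against Control (adjusted p = 0.460 and 0.541, edgeR), so the second largest differences of the family carried its largest errors. Rps27l, a paralog of Rps27 known in human cells as a target of p53, had 86.9, 98.3, 37.5 and 111.1 CPM in HBG, 121.6, 33.9, 107 and 71.0 CPM in the Model libraries and 110.8, 118.3, 124.1 and 48.7 CPM in Control. Rpl22l1, a paralog of Rpl22, had 26.2, 29.7, 16.1 and 28.9 CPM in HBG, 32.4, 12.3, 32.9 and 13.7 CPM in the Model libraries and 31.2, 34.6, 36.9 and 23.4 CPM in Control. In all 3 genes HBG 3 was the lowest HBG library, Model 2 the lowest Model library and Control 4 the lowest Control library. These were also the libraries with the highest summed lymphocyte markers of their groups, at 799.6, 684.7 and 323.5 CPM. Their summed erythrocyte markers were the highest of their groups as well, at 4455, 5664 and 4404 CPM, with Control 1 close at 4386 CPM. Their summed mitochondrial ribosomal protein genes were the lowest of their groups, at 1529, 1520 and 1880 CPM. The part of these lists in the levels of the 3 genes was not tested. Rpl7l1, a paralog of Rpl7, averaged 64.2 ± 3.22 CPM in HBG, 64.8 ± 8.95 CPM in the Model libraries and 60.6 ± 6.13 CPM in Control.

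**Figure D4:**
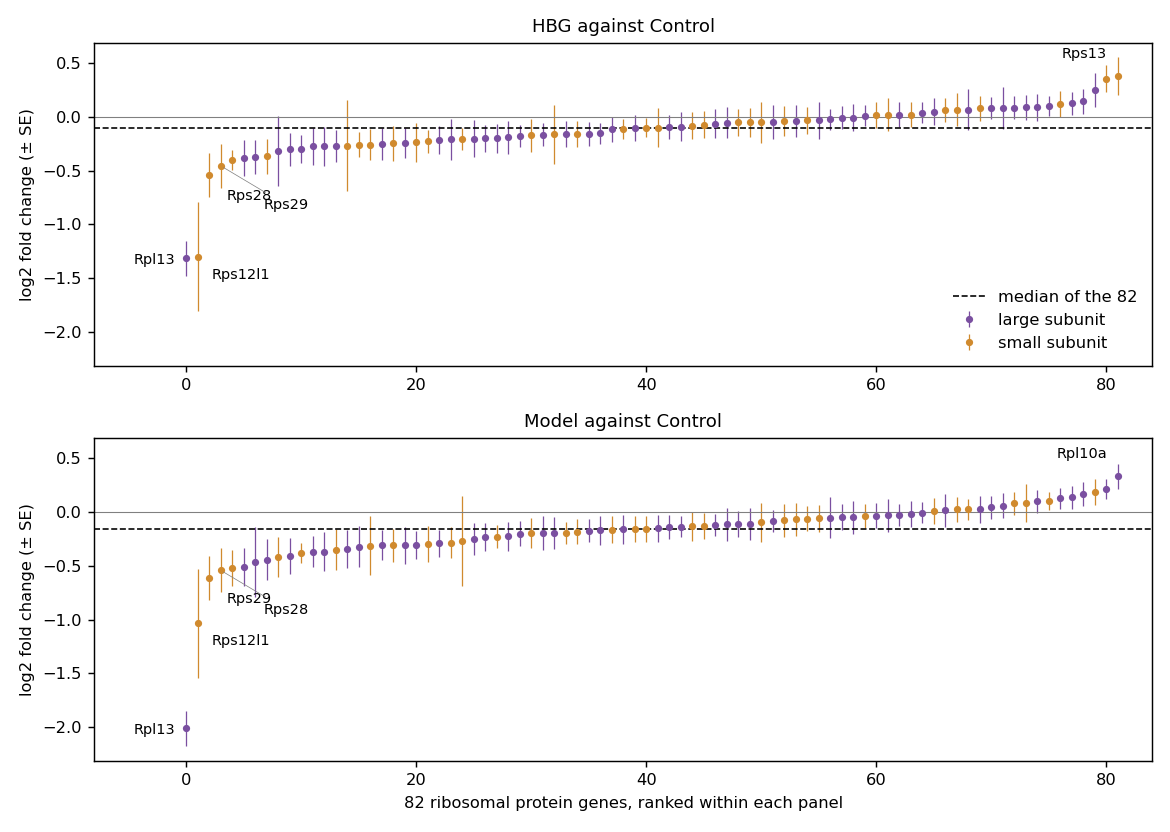
Log2 fold change with its SE of each of the 82 genes, ranked, in HBG against Control (top) and Model against Control (bottom), coloured by subunit, with the median as a dashed line. Rpl13 lies at -1.32 and -2.01, apart from the run of genes around the medians of -0.10 and -0.15, and the bars of Rps12l1 are the widest near it.

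None of the 4 ribosomal protein genes described next, whose symbols the name rule does not cover, passed the test in any comparison. Fau, which carries Rps30 fused to a ubiquitin-like protein, averaged 251.0 ± 13.0 CPM in HBG, 234.3 ± 49.5 CPM in the Model libraries and 242.2 ± 36.4 CPM in Control. Rack1, a scaffold protein on the small subunit, averaged 436.1 ± 30 CPM in HBG, 422.3 ± 45.4 CPM in the Model libraries and 397.6 ± 31.97 CPM in Control. Rpl36al was at -0.28 ± 0.17 in Model against Control (adjusted p = 0.550, edgeR). Rps27rt was low, at 0.98, 1.89, 2.27 and 4.44 CPM in HBG, 0.96, 1.36, 0.317 and 0.508 CPM in the Model libraries and 0.916, 0, 0.233 and 0 CPM in Control, where 3 counts correspond to 0.117 to 0.166 CPM. Every HBG library lay above every Control library, by a narrow margin, at 0.98 CPM in HBG 1 against 0.916 CPM in Control 1. Among all genes tested, 2.41% were higher without overlap between these groups. The unadjusted p was 0.00657 and the adjusted p 0.394 in edgeR's test. Rps27rt matches the open reading frame of Rps27 at 100% identity over 100% of its length. The Rps27 row averaged 263 CPM over the libraries, so the split of reads between these 2 rows is uncertain.

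Translation factors and ribosome biogenesis genes were not mostly lower in Model. Of 25 translation factors and other TOP messages, 13 had a higher and 12 a lower mean in Model than in Control, with a median log2 fold change of 0.01, and 0 passed the test, with 3 in each direction at an unadjusted p under 0.05. Eif3f, a subunit of initiation factor 3, had the lowest value of them at -0.42 ± 0.10 (adjusted p = 0.148, edgeR), and Eif3a, another subunit, the highest at 0.38 ± 0.14 (adjusted p = 0.333, edgeR). Of 30 ribosome biogenesis genes, 27 had a higher mean in Model than in Control, with a median of 0.14. None of the 30 passed the test, and 5 were higher at an unadjusted p under 0.05. Among all genes tested, 51.5% had a higher mean in Model than in Control. Such a p was found for 11.7% of all genes, 6.36% higher and 5.33% lower. In HBG against Model, 25 of these 30 had a lower mean, against 49.9% of all genes, with a median of -0.08 and 0 past the test. In HBG against Control, 24 of 30 had a higher mean, against 51% of all genes, with a median of 0.04.

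The mitochondrial ribosome, a separate set of proteins, did hold genes that passed. Of 78 mitochondrial ribosomal protein genes, 64 had a lower mean in Model than in Control, against 48.5% of all genes, with a median of -0.13. By the test 2 fell, where 0.348% of all genes passed. Mrps24 averaged 11.3 ± 1.81 CPM in HBG, 8.96 ± 1.95 CPM in the Model libraries and 22.1 ± 2.37 CPM in Control, with a log2 fold change of -1.30 ± 0.17 in Model against Control (adjusted p = 0.00671, edgeR). Mrps34 averaged 13.3 ± 1.601 CPM in HBG, 13.0 ± 1.68 CPM in the Model libraries and 24.8 ± 1.69 CPM in Control, with -0.93 ± 0.12 in Model against Control and -0.89 in HBG against Control (adjusted p = 0.00620 and 0.0126, edgeR). Between HBG and Control 70 of the 78 had a lower mean, against 49% of all genes, with a median of -0.14. Mrps34 was the only 1 of them to pass the test, where 0.151% of all genes passed. Between HBG and Model the median was 0.00 and 0 passed.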

How the data were processed

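Per the labels' protocols, polyadenylated RNA of lung tissue was made into stranded TruSeq libraries and read as pairs of 150 bases. The deposited file holds estimated counts per gene, read as such from the values, since 10.0% to 15.2% of a library's values had decimals. It also holds a deposited gene length, another number used only for levels per length and for the correction. The submitters' processing notes name, with no role, the aligners HISAT2 and STAR 2.7.9a, the counters HTSeq and featureCounts 2.0.1, DESeq2 1.34.0, the read tools fastp, cutadapt, Trimmomatic 0.39 and FastQC 0.11.9, and the builds mm10 and GRCm39. The tool that assigned reads shared by gene copies was not stated, so splits between a gene and its copies are uncertain.

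Groups came from the sample labels. Estimated counts were rounded, filtered with filterByExpr, scaled by TMM and tested with edgeR 4.0.16 (R 4.3.3, limma 3.58.1) in 1 quasi-likelihood fit to all 12 libraries, with no term but the group. P-values were two-sided and adjusted by Benjamini-Hochberg over 17827 genes, with a threshold of 0.05. The script was tested on simulated data. Of the 56980 genes listed, 1542 have no gene name and stayed in the library totals, since each has a gene identifier. No pair of libraries in a group agreed within sampling noise. Library log2 values used a prior count of 2. Floors of 3 counts cover counting error only.

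Copies were found with blastn 2.17.0 against GENCODE M21 transcripts of genes other than the 82. The search used the longest open reading frame, known for 80 of the 82 members. The members and all lists were chosen with earlier results of these data known. Named members are those called, the 4 highest and 4 lowest per comparison and a fixed list of stalk, paralog and abundant members. Members given for their overlap, their low level, Rpl22, Rpl38 and the copies were chosen after their values were seen. Alternatives were DESeq2 1.42.0, limma-voom with quality weights, other scalings and filters, 2 groups only, a replicate block, leaving out each library, a GC and length correction, adding rows of named pseudogenes and, chosen after seeing the data, adding all copies. Results for some genes are not reported here.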

Additional observations from a re-analysis of the deposited data

Results flagged for a closer look

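Of 87 groups of 4 libraries checked for a library far from the others, 3 stood apart by Dixon's test at the 95% level, where chance gives about 1 in 20. Rps28 had 161.9 CPM in Control 3, against 101.7 to 111.3 CPM in the other Control libraries. Rpl10 had 164.3 CPM in HBG 1, against 257.9 to 274.3 CPM in the other HBG libraries. The 82 genes took 2.45% of the counts in HBG 1, against 2.64% to 2.67% in the other HBG libraries.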

How the results depend on the processing

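Rpl13 was called in Model against Control under every setting tried, with log2 fold changes of -2.14 to -1.89 and 1 member called each time when a library was left out, and of -2.03 to -1.19 otherwise. In HBG against Control it ranged from -1.41 to -1.25 with a library left out, and was lost with copies added (-0.80, 0 members called). DESeq2 and limma-voom called 2 members in each of these comparisons. The shared shift in Model against Control moved to -0.0049 with factors from the members only, which by construction centre the members, and ranged from -0.23 to -0.08 with a library left out. In HBG against Model it ranged from -0.04 to 0.14, so its sign was not fixed. Signs turned for Rpl10a in Model against Control (-0.048 with pseudogene rows added, -0.04826 with all copies), Rps13 in HBG against Control (-0.07639 and -0.07682 in the same order) and, with all copies added, Rpl27 (-0.03908 in Model against Control, -0.0248 in HBG against Control). Rps12l1 in HBG against Model ranged from -0.5523 to 0.2849 with a library left out, the last without Model replicate 3. The cause of these turns was not tested. Same-numbered libraries deviated with correlations of -0.357 to 0.482, and differently numbered ones with -0.491 to 0.532. No pairing by number was seen in these values, which cannot exclude one. With a replicate block, 25 genes were called in Model against Control, Rpl13 among them at -2.02, and 17 in HBG against Control, Rpl13 among them at -1.32, while HBG against Model was at 0.70 with 0 members called. Of 207 values that answer a comparison, 200 stayed on their side and within their spread.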
